A study of Xenopus laevis with 59 samples.

Results

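The 4 genes of *X. laevis* described here are read through 8 transcripts: kif13b.L and kif13b.S, fam102a.L and fam102a.S, fam208b.L and fam208b.S, and tmem38b.L and tmem38b.S. *X. laevis* is an allotetraploid frog whose genome joins a pair of ancestral subgenomes, and .L and .S mark the copies (homeologs) on the long and on the short chromosome of a pair. The 8 transcripts belong to the 32291 in the count table, and the 4 pairs to the 8634 pairs in which both copies are listed. They had been picked from an earlier analysis of the same counts, because the copies differed in when a vegetal gradient appeared or in their total, and no numeric limit was set. Gradients, section shares and totals are therefore given as descriptions without a test.

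The data came from TOMO-Seq, in which a frozen oocyte is cut into thin slices from the animal to the vegetal pole and the slices are pooled in order into 5 sections from A at the animal tip through the central section C to E at the vegetal tip, with D just above E, and each section gave 1 library. The 59 libraries came from 12 untreated oocytes: 3 very small (stage III, 560 to 580 µm), 5 small (stage IV, 720 to 810 µm), 2 medium (early stage V, 1050 µm) and 2 big oocytes (1140 and 1200 µm, stage VI in the labels and late V in the methods of the study). Medium and big oocytes are called large where they are pooled. Very small oocyte 1 enters without its section A, so shares and totals rest on 11 oocytes and its gradient on sections B, C and E. All very small oocytes came from female 2 and the 9 other oocytes from female 1, so that the step from very small to small cannot be told apart from the difference between the females, whereas small and large oocytes belong to the same female. Replicates are oocytes of the same female, and the spread between animals was not measured.

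The genes code for proteins with unrelated tasks. Kif13b is a kinesin-3, a motor that carries cargo along microtubules, and in *Xenopus* it has been linked to the germ plasm through the adaptor Grip2. Fam102a (EEIG1) was first described in human cells as an oestrogen-induced gene. Fam208b (TASOR2) is a paralog of TASOR, a subunit of the HUSH complex that silences chromatin in human cells. Tmem38b (TRIC-B) is a cation channel of the endoplasmic reticulum membrane that acts beside the release of calcium. Maternal RNA moves to the vegetal pole of the frog oocyte along an early route, through the mitochondrial cloud, and along a late route that starts in mid-oogenesis, and the vegetal cytoplasm later gives rise to germ cells and endoderm.

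The libraries held between 1014060 and 7356435 counts (median 3617724). Counts of a single library ranged from 28 to 5320 for kif13b.L, from 10 to 230 for kif13b.S, from 2 to 65 for fam102a.L, from 16 to 681 for fam102a.S, from 80 to 505 for fam208b.L, from 124 to 2002 for fam208b.S, from 19 to 218 for tmem38b.L and from 22 to 373 for tmem38b.S. Values of fam102a.L are therefore the least precise. All 8 transcripts passed the filter on low counts. In large oocytes the 23 transcripts of the oocyte markers summed to between 2375 and 2890 CPM (counts scaled to the library size, median 2601) in sections A to C. In section E of the same oocytes they summed to between 2744 and 3269 CPM (median 2983). In very small oocytes the medians were 3133 CPM in A to C and 3119 CPM in E. Markers of cells around the oocyte were counted as well. Of the 36 transcripts of stroma, theca and basement membrane, the copies of fn1 and lamc1 carried most of the sum, with a median of 1060 CPM in A to C and 1025 CPM in E of very small oocytes and 1121 against 1135 CPM in large ones. The 32 others, set apart after the values were seen, had a median sum of 82.6 CPM in A to C and 113 CPM (3 libraries) in E of very small, 199 and 225 CPM in small, and 316 CPM (range 196 to 681, 12 libraries) against 823 CPM (617 to 1482, 4 libraries) in large oocytes, so that these markers were also higher at the vegetal tip where the .S copies were.

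In very small oocytes kif13b.L was the steepest of the 8 transcripts, followed by fam102a.S at a much lower gradient. As a share of the oocyte, section E held 64.5% ± 9.80 of kif13b.L (SD, n = 2) in very small, 79.2% ± 4.67 (n = 5) in small, 84.2% ± 0.762 (n = 2) in medium and 84.1% ± 1.94 (n = 2) in big oocytes. The same section held 19.4% ± 1.82 of kif13b.S in very small oocytes, which is close to the even share of a section, then 29.7% ± 6.54 in small oocytes, 46.9% ± 2.11 in the medium class and 50.9% ± 0.571 in the big class. Section D held only 12.2% of kif13b.L in very small and 7.51% in large oocytes, while for kif13b.S it held 22.0% and 23.7%. As a share of its own total, kif13b.S thus kept more outside section E than kif13b.L did in every class.

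The vegetal gradient was computed per oocyte as the log2 CPM of section E minus the mean log2 CPM of sections A, B and C. For kif13b.L it was 3.31, 3.88 and 2.49 in the 3 very small oocytes, 3.42, 4.80, 4.54, 4.93 and 4.20 in the 5 small ones, 5.23 and 4.60 in the medium and 4.67 and 5.17 in the big ones. For kif13b.S it was -0.044, -0.0073 and 0.017 in very small, 1.15, 0.68, 0.58, 1.37 and 0.20 in small, 2.23 and 2.28 in medium and 2.56 and 2.49 in big oocytes. The gradient of kif13b.L was the higher one in each of the 12 oocytes, and the copies did not overlap in any size class. The difference, .L minus .S, was 3.24 ± 0.72 in very small (SD, n = 3), 3.58 ± 0.76 in small (n = 5) and 2.53 ± 0.39 in large oocytes (n = 4).

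**Figure D1:**
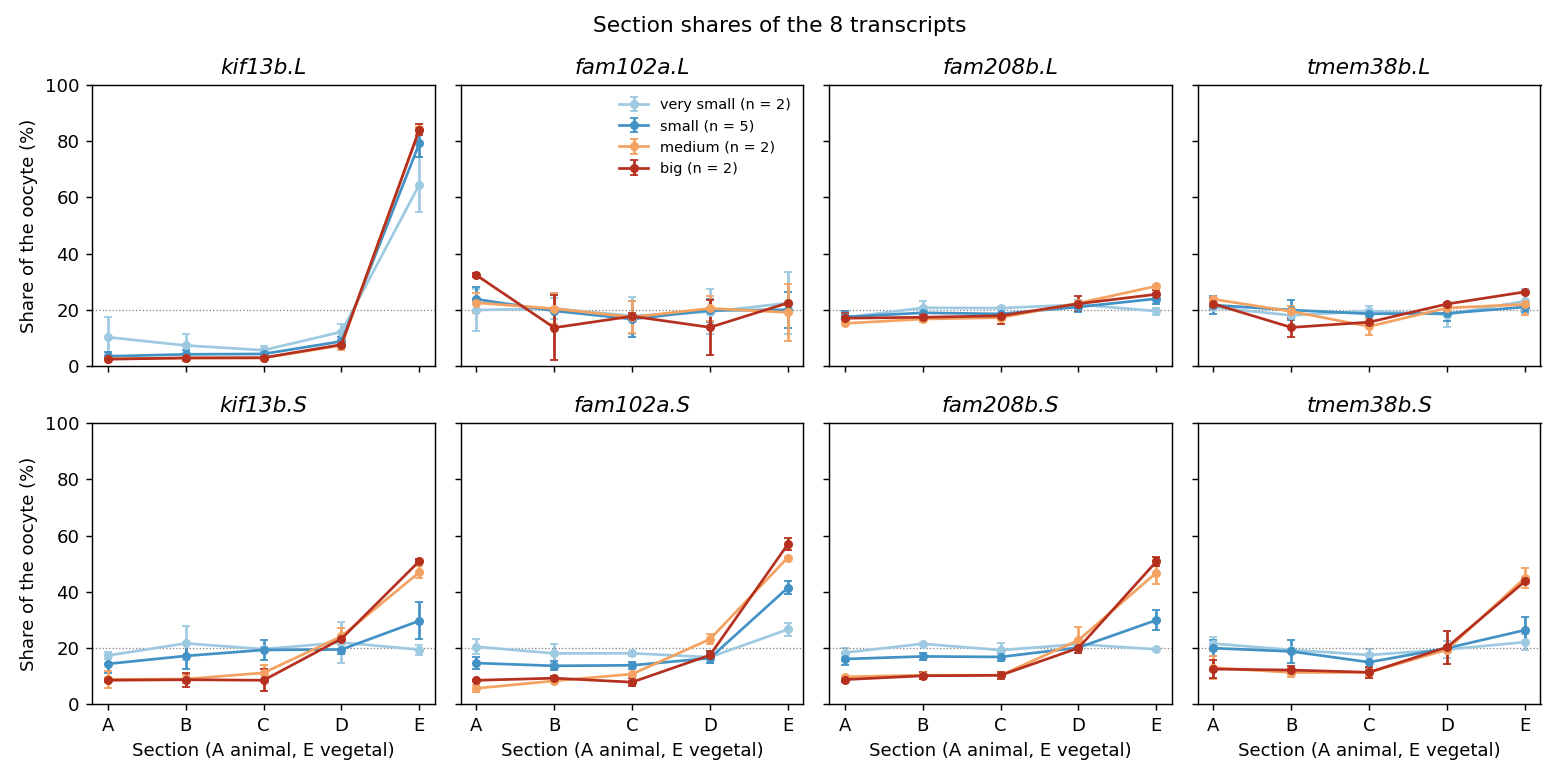
Share of each transcript found in sections A to E, in percent of the 5 sections of an oocyte (vertical axis) against the section from animal to vegetal (horizontal axis). Points are means and bars the SD over oocytes of a size class (n in the key), and the dotted line marks an even share of 20%. Section E of kif13b.L is high in every class, the .S copies of fam102a, fam208b and tmem38b reach 44.3% to 54.5% in section E of large oocytes, and their .L copies stay at 20.8% to 27.0%.

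In fam102a the copies behaved the other way round, and only fam102a.S was vegetal. Section E held 26.6% ± 2.19 of fam102a.S (SD, n = 2) in very small, 41.5% ± 2.31 (n = 5) in small, 52.2% ± 0.109 (n = 2) in medium and 56.9% ± 2.12 (n = 2) in big oocytes. The gradient of fam102a.S was 0.51, 0.42 and 0.57 in very small oocytes, 1.48, 1.47, 1.45, 1.91 and 1.45 in small, 2.73 and 2.67 in medium and 2.78 and 2.64 in big oocytes, so the 4 size classes followed one another without overlap except between the medium and the big class. For fam102a.L it was 0.070, 0.69 and -0.41 in very small, 0.0044, -1.03, 0.11, 0.075 and 0.80 in small, 0.59 and -0.82 in medium and 0.46 and -0.020 in big oocytes. These values lay on both sides of 0 in each class, with an SD over the 4 large oocytes of 0.64 for fam102a.L against 0.060 for fam102a.S. The copies overlapped in very small oocytes and not in the other classes, with a difference of -0.38 ± 0.63, -1.56 ± 0.68 and -2.65 ± 0.60 (SD) in very small, small and large oocytes.

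For fam208b both copies were even along the axis in very small oocytes. Section E then held 19.5% ± 0.183 of fam208b.S and 19.6% ± 1.23 of fam208b.L (SD, n = 2). In small oocytes it held 29.9% ± 3.55 and 24.0% ± 1.99 (n = 5), and in large oocytes 48.8% ± 3.47 and 27.0% ± 1.84 (n = 4). The gradient of fam208b.S was -0.31, -0.0060 and -0.0084 in very small, 0.97, 0.95, 0.78, 1.11 and 0.41 in small, 2.12 and 2.28 in medium and 2.23 and 2.54 in big oocytes. That of fam208b.L was -0.12, -0.11 and 0.12 in very small, 0.41, 0.69, 0.30, 0.29 and 0.23 in small, 0.79 and 0.79 in medium and 0.42 and 0.68 in big oocytes. Unlike fam102a.L, fam208b.L was thus above 0 in each of the 9 oocytes of female 1, at a much lower level than its homeolog. The .S copy was the higher one in 1 of 3 very small, 5 of 5 small and 4 of 4 large oocytes, and the ranges of the copies were separate only in large oocytes, where they differed by -1.62 ± 0.26 (.L minus .S, SD, n = 4).

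Of the tmem38b copies, .S followed the course of fam208b.S, at lower values in small and large oocytes. Section E held 22.1% ± 2.95 of tmem38b.S in very small (SD, n = 2), 26.4% ± 4.65 in small (n = 5), 45.0% ± 3.58 in medium (n = 2) and 43.7% ± 0.483 in big oocytes (n = 2). For tmem38b.L it held 23.1% ± 4.32, 21.0% ± 1.81, 22.0% ± 3.8 and 26.4% ± 0.304 in the same order. The gradient of tmem38b.S was 0.13, 0.038 and 0.32 in very small, 0.78, 0.71, 0.020, 0.96 and 0.34 in small, 1.72 and 2.1 in medium and 1.65 and 2.03 in big oocytes. That of tmem38b.L was -0.016, 0.040 and 0.42 in very small, 0.059, 0.38, -0.11, -0.0053 and 0.051 in small, -0.059 and 0.50 in medium and 0.69 and 0.59 in big oocytes. The small oocytes were the least uniform class for tmem38b.S, with oocyte 3 below the range of the very small ones. Within an oocyte the .S copy was the higher one in 1 of 3 very small, 5 of 5 small and 4 of 4 large oocytes. The difference, .L minus .S, was -0.72, -0.32, -0.13, -0.96 and -0.29 in the small oocytes, in which the ranges of the copies still overlapped, and -1.44 ± 0.35 (n = 4) in the large ones, in which they were separate.

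**Figure D2:**
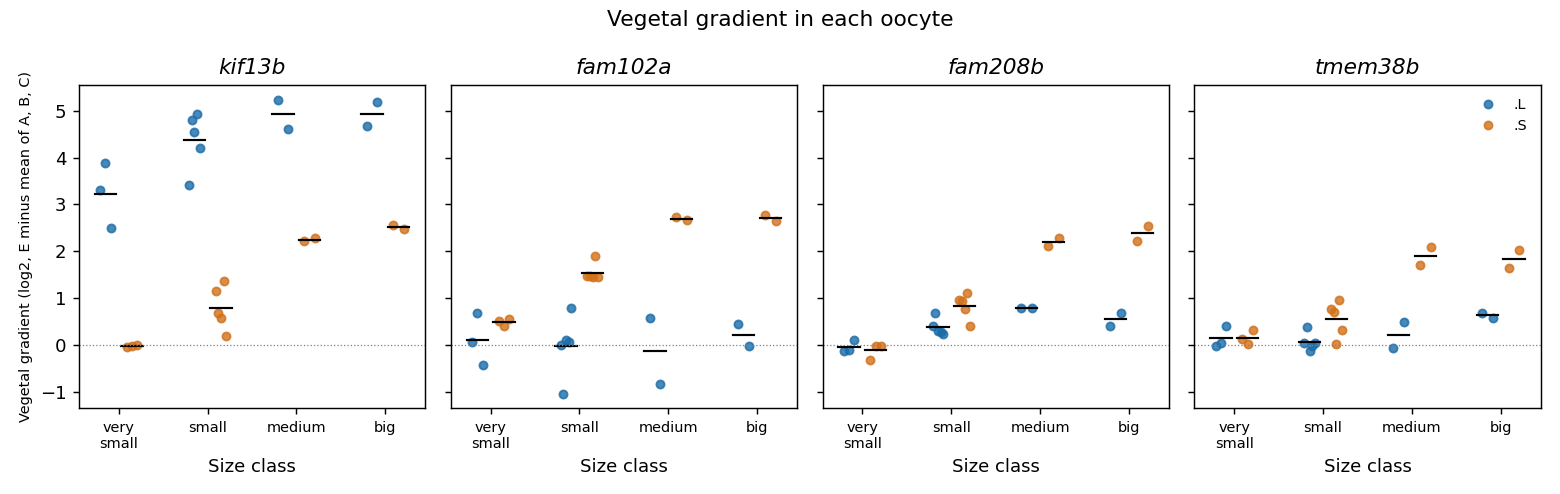
Vegetal gradient (log2, section E minus the mean of A, B and C, vertical axis) in each oocyte, by size class (horizontal axis). Points are oocytes, bars the class means, blue the .L and orange the .S copy. The ranges of the copies are separate from the very small oocytes on for kif13b, from the small ones for fam102a and from the medium ones for fam208b and tmem38b, whose .S copy is already the higher one within each of the 5 small oocytes.

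Both copies are measured in the same libraries, so they can be compared within an oocyte. The sign of the difference was the same in every oocyte from the very small class on for kif13b, and from the small class on for fam102a, fam208b and tmem38b. The share of all pairs with such a constant sign, or with separate ranges of the copies, was not counted. The pairs had been picked on the timing of this gradient, so the sign and the ranges are descriptions. Among the vegetal copies, kif13b.L stood apart in large oocytes with a gradient of 4.92 ± 0.33 (SD, n = 4). Next came fam102a.S with 2.70 ± 0.060, kif13b.S with 2.39 ± 0.16, fam208b.S with 2.29 ± 0.18 and tmem38b.S with 1.87 ± 0.22. The ranges of kif13b.S and fam208b.S overlapped, whereas fam102a.S lay above both (2.64 to 2.78 against 2.23 to 2.56 and 2.12 to 2.54) and tmem38b.S (1.65 to 2.1) below them.

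The gradients were set against the level at either end. In section E the mean level of fam208b.S was 91.5, 198 and 380 CPM in very small, small and large oocytes, while the mean of its sections A to C was 98.7, 110 and 77.3 CPM. For kif13b.S section E had 18.0, 23.4 and 46.4 CPM and sections A to C 18.5, 13.4 and 8.70 CPM. The level of these copies at the vegetal tip of large oocytes was thus 4.15 times (fam208b.S) and 2.57 times (kif13b.S) that of very small oocytes, and in A to C 0.784 and 0.471 times. All 4 ratios stood between ranges that did not overlap. In A to C the ranges of kif13b.L, fam102a.L, fam102a.S and fam208b.L were separate as well, and those of the tmem38b copies overlapped. How many of all transcripts have separate ranges was not counted, and the very small and large oocytes came from different females.

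The other vegetal copies shared the higher level in E but differed in A to C. For fam102a.S section E had 35.3, 77.4 and 128 CPM, and A to C 24.9, 26.0 and 19.7 CPM. For tmem38b.S section E had 18.1, 34.6 and 59.9 CPM, and A to C 16.1, 23.6 and 16.0 CPM, so that large oocytes returned to the level of the very small ones there (0.991 times, ranges overlapping). For kif13b.L section E had 354, 557 and 774 CPM with overlapping ranges, and A to C 34.5, 25.6 and 24.6 CPM. Every library was made from the same mass of total RNA, so that these are levels relative to the RNA of a section and not molecules per section, and more molecules cannot be told apart from less of the other RNA.

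The .L copies without a steep gradient took different courses. In section E tmem38b.L had 24.3, 23.6 and 24.4 CPM, a ratio of 1.00 between large and very small oocytes. In E fam208b.L had 62.2, 75.5 and 86.8 CPM (1.40 times), and 64.2, 57.6 and 54.1 CPM in A to C. For fam102a.L the level was 8.46, 3.66 and 3.49 CPM in E and 7.93, 3.69 and 3.40 CPM in A to C. It was lower in small than in very small oocytes at either end with no overlap of the ranges. These classes came from different females, and the share of all transcripts with separate ranges was not counted.

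**Figure D3:**
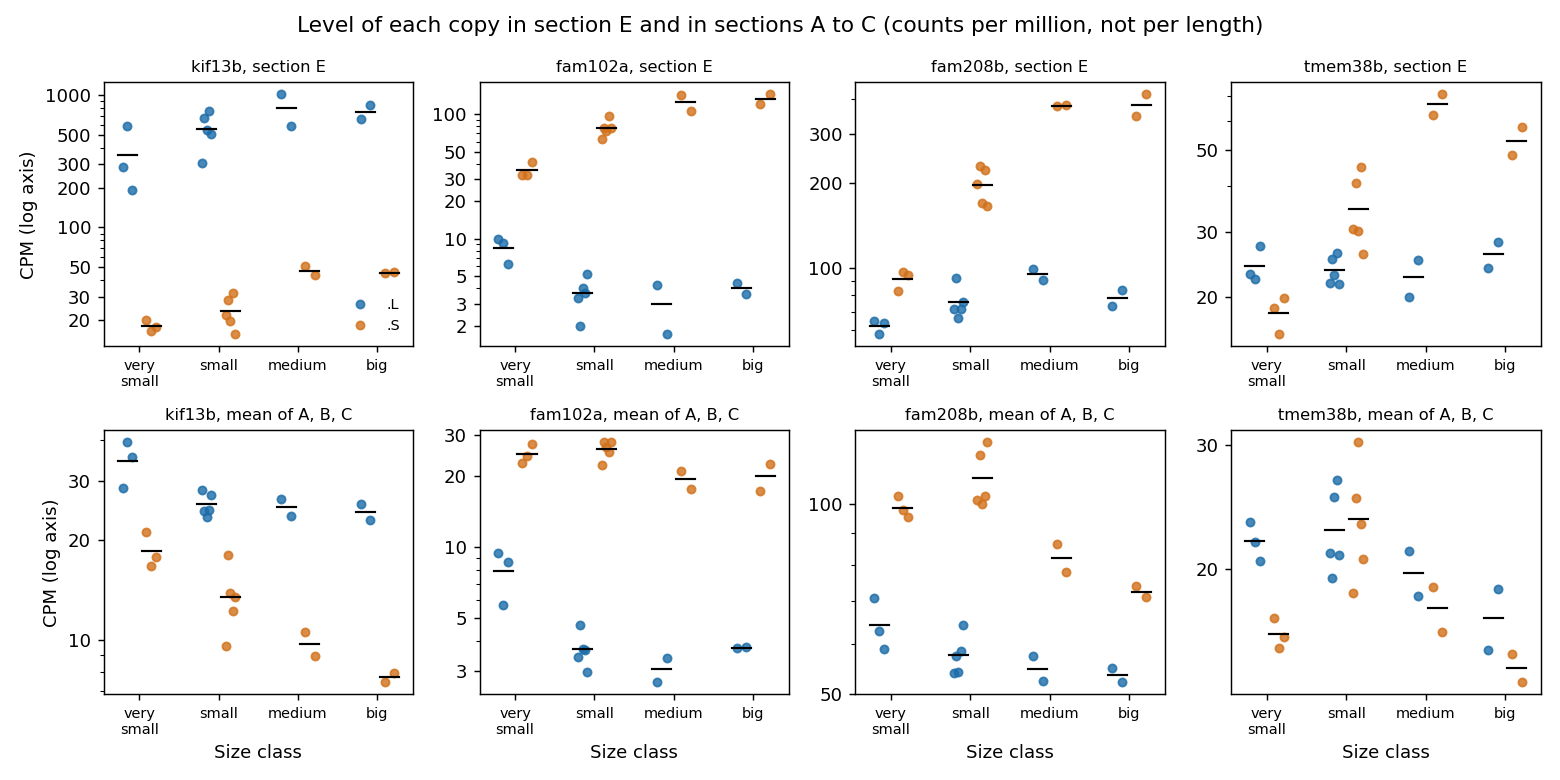
Level in section E (upper row) and mean level of sections A to C (lower row) in CPM on a log axis, by size class, with 1 point per oocyte and a bar for the class mean. Levels are not divided by transcript length, so the height of blue (.L) and orange (.S) points can be compared only within a copy. At the vegetal tip the .S copies of fam102a, fam208b and tmem38b are higher with each size class up to medium, whereas tmem38b.L stays near 24 CPM.

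The total of a transcript was taken as its mean CPM over the 5 sections of an oocyte. From very small to small oocytes the mean total of fam102a.L went from 7.34 to 3.68 CPM (0.501 times), that of fam102a.S from 27.4 to 37.3 CPM (1.36 times), that of fam208b.S from 98.0 to 132 CPM (1.35 times) and that of tmem38b.S from 16.1 to 26.3 CPM (1.63 times), each without overlap of the 2 very small and 5 small oocytes. The totals of their homeologs fam208b.L (62.3 and 62.9 CPM) and tmem38b.L (21.7 and 22.6 CPM) overlapped between these classes. From small to large oocytes the ranges of all 8 totals overlapped, with ratios between 0.896 for tmem38b.L and 1.32 for kif13b.L. The totals of the kif13b copies overlapped at the first step as well, with 115 and 139 CPM (1.21 times) for kif13b.L and 17.6 and 15.8 CPM (0.898 times) for kif13b.S. Among the 8 transcripts, totals with separate ranges lay at the step that also separates the females. How many of all transcripts have separate totals at either step was not counted. Totals had also served to pick the pairs, so this is a description only. The gradients of the 4 .S copies were higher in large than in small oocytes of female 1 as well, without overlap. How many of all transcripts have gradients separate in this way was not counted. The timing of the gradient had picked the pairs, so this too is a description.

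The total of kif13b.L varied most between oocytes of a class. It was 164 and 66.3 CPM in the 2 very small oocytes with 5 sections, between 85.1 and 184 CPM (median 137) in small, 240 and 139 CPM in medium and 160 and 196 CPM in big oocytes. The total of kif13b.S in the same oocytes was 18.2 and 17.0, between 12.1 and 20.2 (median 15.3), 22.3 and 18.1, and 17.6 and 18.2 CPM. Most of the variation of kif13b.L came from section E, which held 585 and 191 CPM in those very small oocytes against 39.3 and 35.5 CPM in A to C.

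The share of the .L copy was computed as a percent of the level (CPM) of both copies, averaged over sections with equal weight. It is not corrected for length or for how well reads of a copy can be placed, so only its change between samples is read. Over the whole oocyte it was 21.0% ± 2.60 for fam102a in very small (SD, n = 2), 9.04% ± 0.823 in small (n = 5) and 6.67% ± 1.39 in large oocytes (n = 4). For fam208b it was 38.9% ± 0.364, 32.3% ± 0.570 and 29.2% ± 0.664, for tmem38b 57.4% ± 1.71, 46.3% ± 2.73 and 43.0% ± 2.20, and for kif13b 84.8% ± 7.34, 89.6% ± 1.48 and 90.4% ± 1.43. For tmem38b the share was at least 56.2% in the very small oocytes and at most 49.7% in each of the 9 others. These 9 came from another female than the very small ones, so size class and female cannot be told apart here. The share of all pairs with separate values in this way was not counted. Totals had also served to pick the pairs, so this is a description.

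The share of the .L copy was then taken by section. For fam208b it was 40.5% in E and 39.3% in A to C of very small oocytes, and 18.6% ± 1.86 in E against 41.2% ± 1.39 in A to C of large ones (SD, n = 4). For tmem38b it was 57.3% in E and 57.6% in A to C of very small, and 29.1% ± 4.48 against 53.4% ± 3.03 in large oocytes. In both pairs the share differed more between E and A to C of large oocytes than between A to C of the classes, with 34.5% for fam208b and 49.2% for tmem38b in A to C of small oocytes. For fam102a it was lower at either end, from 19.6% to 2.61% in E and from 24.1% to 14.8% in A to C. For kif13b it stayed at 94.1% and 94.2% in E and was 64.9% ± 6.55 (n = 3) and 74.0% ± 2.59 (n = 4) in A to C.

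**Figure D4:**
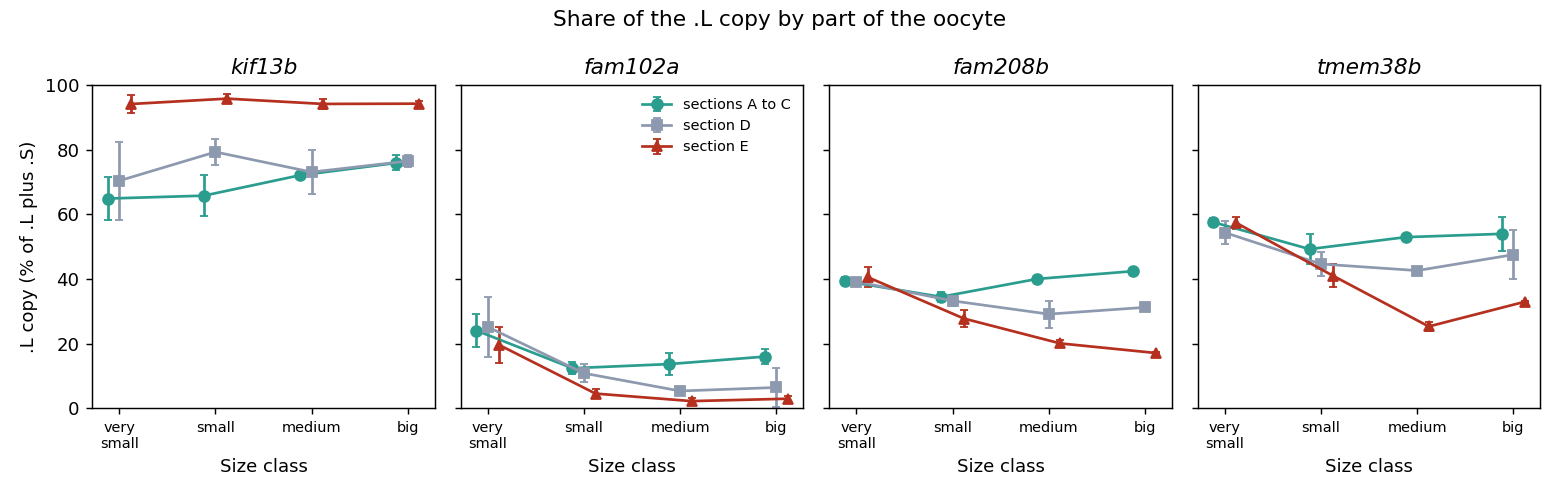
Level (CPM) of the .L copy in percent of the level of both copies (vertical axis) by size class (horizontal axis), in sections A to C (green circles), section D (grey squares) and section E (red triangles). Points are means and bars the SD over oocytes. The 3 parts of the oocyte start together for fam208b and tmem38b and are spread in large oocytes, with 18.6% and 29.1% in section E, whereas section E of kif13b stays near 94%.

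Such differences between homeologs were not particular to the 4 pairs. The L minus S difference in the vegetal gradient, fitted with edgeR over the 5500 pairs whose copies both passed the filter, passed an FDR under 0.1 in 1.87% of pairs in very small, 9.58% in small and 22.7% in large oocytes (1248 pairs). In the last class 379 pairs had a copy over 2-fold higher in E (FDR under 0.1), and both copies were so in 76 of these. Of the 379, 299 (78.9%) differed between the copies, 226 of them by more than 2-fold. These pairs were kept on the same gradient in which their copies were then compared. A difference was thus partly built in, and the 78.9% is no independent rate. The median absolute difference over all pairs was 0.12 in very small, 0.099 in small and 0.18 in large oocytes on the log2 scale. The fitted differences of the 4 pairs, by which they had been picked, were 2.56 for kif13b, -2.92 for fam102a, -1.66 for fam208b and -1.44 for tmem38b in large oocytes. In very small oocytes they were 3.16, -0.49, 0.11 and 0.019.

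**Figure D5:**
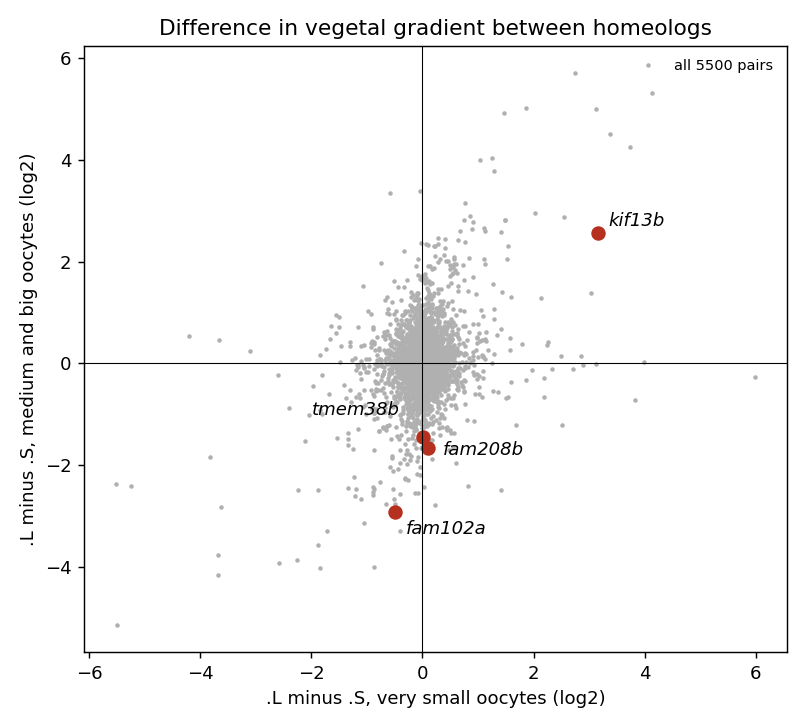
Difference in vegetal gradient between the copies (.L minus .S, log2) in medium and big oocytes (vertical axis) against very small oocytes (horizontal axis), from the fit over all 5500 pairs (grey) with the 4 pairs in red. kif13b lies far from 0 on either axis, whereas fam208b and tmem38b are at 0.11 and 0.019 on the horizontal and at -1.66 and -1.44 on the vertical axis.

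Sections A, B and C entered the gradients and totals by which the pairs had been picked. Differences among these sections had not served to pick them, and these were tested. The first question was whether the extremely animal section A differed from section B. In very small oocytes 0 of the 8 transcripts passed (edgeR quasi-likelihood test, FDR under 0.1 over 19210 transcripts), beside 0.0156% of all transcripts. In small oocytes 0 of 8 passed beside 1.05% of all, and in large oocytes 0 of 8 beside 2.27%. At an unadjusted p under 0.05 there were 1, 0 and 1 of 8, and DESeq2 called 0 in each class. The differences lay between -0.38 and 0.53 in very small, -0.28 and 0.29 in small and -0.28 and 0.50 in large oocytes on the log2 scale, with standard errors of 0.090 to 0.35. Small differences were thus not detectable for the transcripts with large errors. These were the scarce fam102a.L (SE 0.31, 0.30 and 0.35 in very small, small and large oocytes) and also the abundant kif13b.L (0.34, 0.27 and 0.30). Only 2 very small oocytes have a section A.

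The second question was whether the central section C, which borders the vegetal sections, differed from the mean of A and B. Again 0 of 8 passed in very small oocytes, beside 0.0156% of all transcripts, and 0 of 8 in small oocytes beside 0.448%, with 0 and 1 at an unadjusted p under 0.05 and 0 by DESeq2. For 5 of the 8 DESeq2 gave no adjusted p in small oocytes. In large oocytes 1 of 8 passed, beside 5.41% of all. This was tmem38b.L, which was lower in C by -0.43 (SE 0.14, edgeR FDR 0.0723, DESeq2 FDR 0.0943). Its level in sections A, B and C was 25.1, 21.7 and 16.8 CPM in medium oocyte 1, 24.0, 18.5 and 12.3 CPM in medium oocyte 2, 21.4, 10.3 and 14.2 CPM in big oocyte 1 and 22.2, 17.3 and 16.7 CPM in big oocyte 2. Section A was the highest of these sections in all 4 oocytes, and C was below B in 3 of them.

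The call of tmem38b.L was a narrow one. Its FDR ranged from 0.0390 to 0.551 when an oocyte was left out, and it passed in 7 of 12 such fits, not without big oocyte 1 (0.118), big oocyte 2 (0.547), medium oocyte 1 (0.107), medium oocyte 2 (0.551) or very small oocyte 2 (0.101). Without the replicate block of the oocyte the FDR was 0.139. Markers of the surrounding cells had the same pattern in these libraries: beside 3.55% of all transcripts lower in C, 11 of 33 tested markers of stroma, theca and basement membrane were lower and 0 higher in C than in A and B, with a median of -0.75, as were 2 of 16 granulosa and 1 of 6 blood and endothelium markers. Their part in the value of tmem38b.L was not tested.

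For the steep .S copies no difference within the animal part passed in the fit on all oocytes. In large oocytes C minus the mean of A and B was 0.084 (SE 0.098) for fam208b.S, 0.25 (SE 0.13, FDR 0.330) for fam102a.S, 0.22 (SE 0.22) for kif13b.S and -0.15 (SE 0.17) for tmem38b.S, all by edgeR. Without medium oocyte 1 the value of fam102a.S was 0.49, with medium oocyte 2 alone for its class, so that the value depended on the oocytes kept. In sections A, B and C medium oocyte 2 had 9.61, 16.6 and 26.9 CPM, with 16 counts in A. Medium oocyte 1 had 17.8, 23.0 and 22.5 CPM, and in big oocyte 1 section C was the lowest.

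The copies were then compared directly in the animal part, with the copies of a library as matched columns. The difference between homeologs in A minus B passed for 0 of 4 pairs in large oocytes (edgeR, FDR under 0.1), beside 1% of 5500 pairs, and in C minus the mean of A and B for 0 of 4 beside 4.35%. At an unadjusted p under 0.05 there were 0 of 4 in either comparison. DESeq2 called 0, but gave no adjusted p for 2 of the 4 pairs in A minus B. The largest value was that of fam102a, 0.75 (SE 0.38) in A minus B, with the scarce .L copy in it. For fam208b, the pair with the most counts in the animal part, the differences were 0.036 (SE 0.12) and -0.031 (SE 0.11). The copies of fam208b thus differed by -1.62 between E and A to C but by less than the error among A, B and C.

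Medium and big oocytes were also set side by side, as a description, since the timing of the gradient over the size classes had served to pick the pairs. The difference between the copies, .L minus .S, was -1.33 and -1.49 in the medium and -1.81 and -1.86 in the big oocytes for fam208b, and -1.78 and -1.59 in the medium and -0.96 and -1.44 in the big oocytes for tmem38b. In fam208b and tmem38b the medium and big values were separate, whereas those of kif13b and fam102a overlapped. With 2 oocytes in each class, ranges are often separate by chance. The share of all pairs with separate ranges was not computed, so no order of the classes is read from them. Over all 5500 pairs the fit called 0% for big minus medium (0 pairs by edgeR and 0 by DESeq2, 196 at an unadjusted p under 0.05), with 2 oocytes in each class.

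The profiles over the 20 groups of size class and section were compared by Pearson's r with the 15703 transcripts that had a mean total of at least 100 counts per oocyte. Groups share libraries of the same oocytes, so r is a description. For kif13b.L the closest were sybu.L (r = 0.992), pgat.L (0.990) and loc101732597.S (0.987), and its own homeolog had 0.819. Of these, pgat is a germ plasm RNA of *Xenopus* and sybu codes for syntabulin, an adaptor of kinesin. For kif13b.S the closest were spag9-like.1.L (0.987), arid1b.L (0.985) and loc100498520-like.L (0.980).

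The .S copies of fam102a and fam208b shared a close transcript, e2f1.S, which codes for a transcription factor of the cell cycle. For fam102a.S it came first (0.977), before rnf111.S (0.976) and mpst.L (0.971), and for fam208b.S it had 0.976, before aftph.L (0.974). For tmem38b.S the closest were cep57.L (0.956), fam208b.S itself (0.954) and ube2l3.L (0.952). Between the copies of a pair, r was -0.148 for fam102a, 0.907 for fam208b and 0.498 for tmem38b. The best of 15703 transcripts cannot be weighed against this single value. The pairs had also been picked because their copies differ, so a closer match with another gene carries no weight.

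Among the other .L copies, the best match was at most 0.956. For fam208b.L the closest were ptpn3.S (0.956), Xetrov90010149m.S (0.952) and skil.S (0.951), for fam102a.L zc3h10.L (0.943), ddx49.L (0.938) and mmadhc.S (0.934), and for tmem38b.L serpini1.L (0.876), arl1.S (0.848) and loc100495617.L (0.826). The value of tmem38b.L was the lowest best match of the 8.

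The genes that work with kif13b were examined by their vegetal gradient in large oocytes, in which 11.7% of all transcripts passed as higher and 10% as lower in E (edgeR, FDR under 0.1). Of 17 tested transcripts of KIF13B partners and germ plasm transport, 7 were higher and 0 lower, with a median of 0.16 beside -0.013 over all transcripts. These 7 were both copies of grip2, sybu and lrp1 and cav1.L, and the list had been drawn up to include RNAs known from the germ plasm. The steepest were grip2.L with 8.47 (SE 0.26) and grip2.S with 7.46 (SE 0.18), which code for the adaptor of Kif13b, and sybu.L with 5.81 (SE 0.20). lrp1, a receptor named as a cargo of KIF13B in mammals, had 3.41 (SE 0.11) for its .S and 1.81 (SE 0.091) for its .L copy. Of the 4 other kinesin-3 transcripts tested, kif16b.L (0.92, SE 0.092) and kif1c.S (0.86, SE 0.096) passed as higher, and kif13a.S had -0.22 (SE 0.26).

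The families of the other genes were read against the same 11.7% of all transcripts. Of 13 tested transcripts of the HUSH complex and its partners beside fam208b, 3 were higher and 1 lower in E, led by pphln1.L (periphilin, a HUSH subunit) with 1.64 (SE 0.077), whereas pphln1.S had 0.051 (SE 0.10). The TASOR copies fam208a.L and fam208a.S had -0.014 (SE 0.072) and 0.016 (SE 0.078). Of 16 transcripts of calcium handling in the endoplasmic reticulum beside tmem38b, 2 were higher and 3 lower. The calcium pump atp2a3.L had 1.94 (SE 0.11) and atp2a3.S -0.064 (SE 0.096), another pair in which a single copy passed. Of 7 transcripts of the fam102 family and NF-kB receptors beside fam102a, 0 were higher and 1 lower, which was traf6.L with -0.28 (SE 0.10), while fam102b.L and fam102b.S had -0.15 (SE 0.10) and -0.23 (SE 0.20).

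The known vegetal RNAs served as a scale for the 5 vegetal copies. The 4 early vegetal RNAs (nanos1, dazl, ddx25 and pgat) passed as higher in E in every class, beside 1.66%, 5.57% and 11.7% of all transcripts in very small, small and large oocytes, with a median gradient of 5.10 in very small and 6.81 in large oocytes. The 7 tested transcripts of the list drawn up here as late, among them vegt and wnt11b, had 2.24 in very small and 4.70 in large oocytes. The main text of the study names vegt as a late RNA and does not place wnt11b. The 11 transcripts of the intermediate group had 0.38 and 2.73. As means over oocytes of the same classes, not fitted values, kif13b.L had 3.23 and 4.92 and fam208b.S had -0.11 and 2.29. The values of kif13b.L lie between the medians of the early and the late RNAs. In large oocytes the late list ran from 3.02 (vegt.S) to 6.38 (wnt11b.L). Its next highest value was 4.83 (otx1.L), so that 4.92 lies inside the range only through wnt11b.L. In very small oocytes the late list ran from 0.74 (vegt.L) to 3.07 (wnt11b.L), with bicc1.L next at 2.51. The single oocytes of kif13b.L ran from 2.49 to 3.88 there. Its mean of 3.23 is thus not read as set apart from that range. The intermediate group was wide, from -0.54 (rbpms.L) to 5.21 (grip2.L) in very small and from -0.22 (rbpms.L) to 8.47 (grip2.L) in large oocytes. Its range held kif13b.L in both classes. In large oocytes 26 of 33 tested markers of stroma, theca and basement membrane also passed as higher in E and 0 as lower (median 1.17), as did 8 of 16 granulosa markers and 3 of 6 blood and endothelium markers. Of the 29 granulosa transcripts 6, among them star.L and both copies of amhr2, had a median of 0 CPM, as had 8 of the 21 blood and endothelium transcripts, among them both copies of gata1. The part of such cells in the gradients of the 8 transcripts was not tested.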

How the data were processed

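RNA was measured in 59 libraries of 12 *X. laevis* oocytes. After trimming (Trimmomatic) and removal of ribosomal and mitochondrial reads (SortMeRNA), the authors aligned with STAR 2.5.2b and deposited raw counts per transcript made with htseq-count. How reads that fit both homeologs were treated is not given in the sources used here. The 7 other deposited files, with normalized values or *A. ruthenus* data, were not used here.

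From the counts, edgeR 4.0.16 (R 4.3.3) gave TMM factors and quasi-likelihood fits over all transcripts that passed filterByExpr, with the oocyte as replicate block and terms for size class by section. Each library holds a section of its oocyte, so this block pairs sections of the same oocyte by the labels. Pairs of homeologs were fitted with the copies of a library as 2 columns, the library as block. A call needed an FDR (Benjamini-Hochberg) under 0.1. For gradients, the prior count added before log2 was 2. DESeq2 1.42.0 served as an alternative, beside other scalings, no filter, an FDR under 0.05, a prior count of 0.5, sections B and C only, unscaled counts, sections B to E, and each of the 12 oocytes left out.

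The members, lists and tests were chosen with earlier results of these data known. The text names the 8 transcripts, the 3 transcripts closest to each in profile (for fam208b.S, 1 of them is not reported here), and up to 3 members of a list with the largest gradient. Further list members were named after their values were seen (lrp1, sybu.S, cav1.L, kif13a, fam208a, pphln1.S, atp2a3.S, fam102b and traf6). A planned test of the gradient in big minus medium oocytes is not reported for the 8 transcripts, since the timing of the gradient chose the pairs. The test of A minus B in large oocytes was checked on simulated counts with known changes, for transcripts and for pairs. Apart from those changes, the simulated transcripts had a single mean level in all oocytes and sections. The other comparisons were not checked in this way. Sequences and transcript lengths were not used here.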

Additional observations from a re-analysis of the deposited data

Results flagged for a closer look

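Over 32 sets of the 5 small oocytes (gradients, differences, section E shares, totals and .L percent), 1 value stood apart from the rest of its set, and chance alone gives about 1 in 20. The vegetal gradient of fam102a.S was 1.91 in small oocyte 4, while the 4 other small oocytes lay between 1.45 and 1.48.

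The vegetal gradient of fam208b.S was -0.31, -0.0060 and -0.0084 in the 3 very small oocytes (mean -0.11) and above 0 in every oocyte of the larger classes. The mean of the very small class rests mostly on the value of very small oocyte 1, which has no section A. The mean differed from that of very small oocytes by 0.95 in small (0.84), by 2.31 in medium (2.20) and by 2.49 in big oocytes (2.39). This difference was not tested, since the pair had been picked on it, and the very small oocytes came from another female.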

How the results depend on the processing

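The count of 1 transcript passing for C minus the mean of A and B in large (medium and big) oocytes was 0 without the replicate block, 0 without the filter on low counts and 0 at an FDR under 0.05, and 0 to 1 when an oocyte was left out. For A minus B in large oocytes the count of 0 was 0 to 1 when an oocyte was left out (tmem38b.L without small oocyte 3). The cause was not tested. The other 6 counts of transcripts or pairs passing in the report were 0 under every alternative, and DESeq2 gave no adjusted p for 5 of the 8 transcripts in C minus the mean of A and B of small oocytes and for 2 of the 4 pairs in A minus B. The pairing by replicate block changed no other call. With unscaled counts summed over sections the .L percent in large oocytes was 87.9 for kif13b, 30.9 for fam208b and 45.4 for tmem38b. With sections B to E it was 5.25 for fam102a, 27.6 for fam208b and 40.0 for tmem38b there, 8.15 for fam102a in small and 39.8 for fam208b in very small oocytes. The differences in gradient between the copies moved by less than 1 SD in all 48 values with an oocyte left out and all 48 under other settings. By 1 SD or more moved 7 totals, 3 gradients of single copies and 1 section E share, none of which changed its sign: for example, the gradient of fam102a.S in large oocytes was 2.61 without TMM and 2.59 with sections B and C only, and with sections B to E the totals of fam102a.S and fam208b.S there were 54.7 and 177 CPM. Depth limited fam102a.L most, with 2 to 65 counts per library, and 2 oocytes per class limited the comparison of medium with big oocytes.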
